A study of Mus musculus with 4 samples.

Results

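The genes described here encode the trypsin system of the exocrine pancreas: the trypsinogens Prss1, Prss2, Prss3, Try4, Try5 and Try10, the trypsin inhibitor Spink1, and Ctrc, the gene of chymotrypsin C, a protease that in humans degrades trypsinogen and whose mouse gene RefSeq annotates as a transcribed pseudogene. Members were the rows of the array table whose platform annotation gave exactly 1 gene symbol, equal to one of these 8 names, and 7 of the 8 were found among 22180 genes. Try10 had no row of its own, because its only row also names Gm5409. Affymetrix arrays measured RNA levels in whole pancreas from 2 Ifrd1 null mice and 2 wild-type mice, aged 8 weeks and taken at day 5 of cerulein treatment. All 4 mice received cerulein, an analog of the gut hormone cholecystokinin that over-stimulates acinar cells and causes pancreatitis, by intraperitoneal injection at 100 µg/kg, 6 times daily on alternate days, and the study took tissue while the injured organ was proliferating. The labels give the mutants' genotype as IFRD1 null (IFRD1_KO in the titles) and give no strain, allele or sex, and untreated pancreas is not analysed here, so every value compares genotypes within injured tissue. Levels are the authors' deposited values, read as log2, a scale inferred from their range.

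Trypsinogens are inactive precursors that acinar cells make in bulk, package in zymogen granules and release into the gut, where enteropeptidase cuts them to trypsin, which in turn activates the other pancreatic zymogens. When trypsin forms early, inside the acinar cell, it can start pancreatitis. In humans SPINK1 blocks such trypsin in the gland and CTRC cuts trypsinogen before it is activated, and variants of PRSS1, SPINK1 and CTRC are known risk factors for pancreatitis. Ifrd1 encodes a transcriptional co-regulator.

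The arrays matched their genotype labels for Ifrd1, at 6.99 and 7.09 in Ifrd1 null against 9.04 and 9.07 in wild type, although this difference of -2.02 (log2) missed the adjusted threshold (limma adjusted p = 0.138). The sex-linked transcripts also separated the groups: Xist was at 10.15 and 9.58 in Ifrd1 null against 2.56 and 3.54 in wild type, and Uty at 2.25 and 2.36 in Ifrd1 null against 6.41 and 6.40 in wild type. These values read as female mice in Ifrd1 null and male mice in wild type, although the labels give no sex. Genotype and sex therefore cannot be told apart in any result below. The tissue label, adult pancreas, matched acinar markers, since all 15 measured acinar genes that are not proteases lay above the median of every array. Some, but not all, intestinal transcripts set 1 library apart, wild type 1. Lgals4, a gut galectin, was at 4.24 and 3.97 in Ifrd1 null against 7.24 and 4.31 in wild type. Wild type 2 minus wild type 1 was -2.93 for Lgals4 and -2.06 for Agr2. Of the 10 intestinal markers measured, Vil1, Cdx2, Fabp2 and Slc5a1 were also higher in wild type 1 than in wild type 2, by less. Sis, Apoa4 and Defa24 were lower in wild type 1, and Lyz1 was equal in both. Without wild type 1, Try5 (0.13) was the only member whose difference changed sign. The labels call the samples biological replicates but do not say whether litters or days were shared, and the smallest p that an exact permutation test allows for 1 gene in this design is 0.333.

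No member differed between genotypes at an adjusted p under 0.05. The count was 0 of 7 members in either direction by limma with Benjamini-Hochberg adjustment, and 0 of 7 at an unadjusted p under 0.05. Over all 22180 genes 0.00451% passed the adjusted threshold, which was 1 gene, the Y-linked Uty (limma adjusted p = 0.0206), and 6.91% had an unadjusted p under 0.05. The median difference of the members, Ifrd1 null minus wild type, was 0.14 on the log2 scale. Of the 7 members, 4 were higher and 3 lower. The median over all genes was -0.01, and 47.2% of them were higher. The 4 higher members include Prss3, whose own row is not shown to be above background. When genes dimmer than the median gene were dropped, Prss3 with them, the members' median was 0.06. It also moved with the scaling, to 0.05 (quantile normalization), 0.12 (median centring) and 0.18 (cyclic loess). For 4 of the 7 members the Ifrd1 null arrays stood on either side of both wild-type arrays, as they did for 18.5% of all genes.

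**Figure D1:**
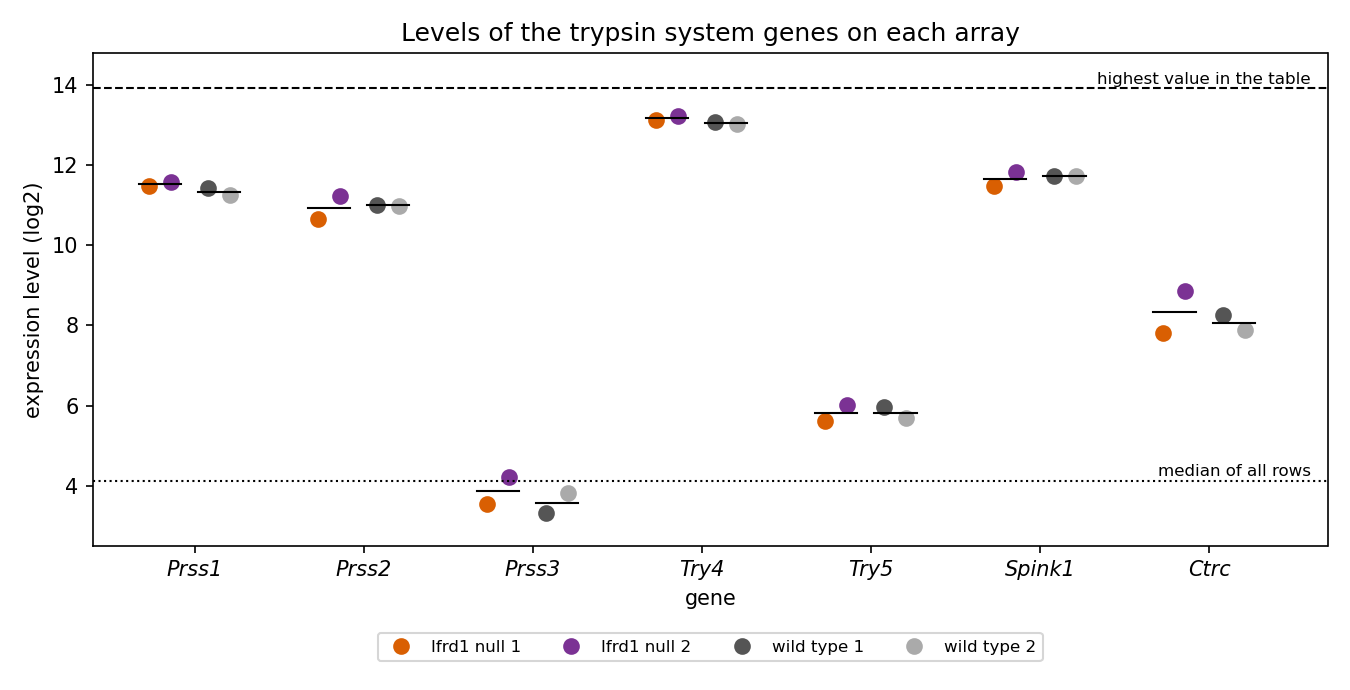
Expression level (log2, y axis) of each of the 7 genes on each array, with a short line at each group mean (n = 2 arrays per group). Dashed and dotted lines mark the highest value in the table and the mean of the array medians. Try4 lay closest to the top and Prss3 near the median. The Ifrd1 null points lay further apart than the wild-type points for 6 of the 7 genes, all but Prss1, as they did for 55.4% of all genes.

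Among the members, Prss1 and Try4 were the trypsinogens whose groups did not overlap. Prss1, also known as trypsin 1, was at 11.49 and 11.57 in the Ifrd1 null arrays and at 11.42 and 11.26 in the wild-type arrays. Both null values lay above both wild-type values, but the gap between the nearest arrays of the groups was smaller than the gap between the wild-type arrays. Its difference was 0.19 ± 0.12 (log2, SE), a fold of 1.14 with a 95% interval from 0.916 to 1.42 (limma adjusted p = 0.762). Try4 was at 13.12 and 13.23 in Ifrd1 null, against 13.07 and 13.02 in wild type. Its difference was 0.14 ± 0.11 (SE), a fold of 1.10 with a 95% interval from 0.901 to 1.34 (limma adjusted p = 0.786). Groups without overlap were thus found for 2 of 7 members, both higher in Ifrd1 null, while 16.1% of all genes were higher and 19.7% lower in Ifrd1 null without overlap, and 35.8% did not overlap in either direction. Under the 3 other scalings tried (quantile normalization, median centring and cyclic loess) both differences were above 0, from 0.17 to 0.26 for Prss1 and from 0.05 to 0.18 for Try4.

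Prss2, the trypsinogen gene nearest to the T cell receptor beta constant regions, overlapped between genotypes. It was at 10.66 and 11.22 in the Ifrd1 null arrays, which lay below and above the pair of wild-type values of 11.01 and 10.98. The group means were 10.94 ± 0.40 in Ifrd1 null and 11.00 ± 0.02 in wild type (SD, n = 2 each). The difference of -0.06 ± 0.21 (SE; limma adjusted p = 0.953) was smaller than the spread of the null arrays, and its sign turned with cyclic loess (0.02). Try5 followed the same order of arrays, with 5.61 and 6.02 in Ifrd1 null against 5.96 and 5.68 in wild type. Its difference was -0.01 ± 0.19 (SE; limma adjusted p = 0.995), with a sign that turned under quantile normalization (0.05) and cyclic loess (0.05).

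Prss3 could not be read on its own. The row that names it alone was at 3.54 and 4.21 in Ifrd1 null and at 3.33 and 3.82 in wild type, under the median of 3 of the 4 arrays, and is therefore not shown to be above background. Its difference was 0.30 ± 0.30 (SE; limma adjusted p = 0.813). A second row names both Prss3 and the paralog Gm10334 and was far brighter. That row was at 9.79 and 10.77 in Ifrd1 null against 9.74 and 9.76 in wild type, so Ifrd1 null 2 stood about 1 log2 unit above the other 3 arrays while Ifrd1 null 1 lay close to wild type. The mean difference of this shared row was 0.53 (1.45-fold), with an SD of 0.70 between the null arrays and 0.01 between the wild-type arrays, and it was not part of the gene-level test. The row shared by Try10 and Gm5409, the only one to name Try10, was at 7.14 and 7.65 in Ifrd1 null and at 7.60 and 7.72 in wild type. There Ifrd1 null 1 was the low array and Ifrd1 null 2 lay within the wild-type range.

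**Figure D2:**
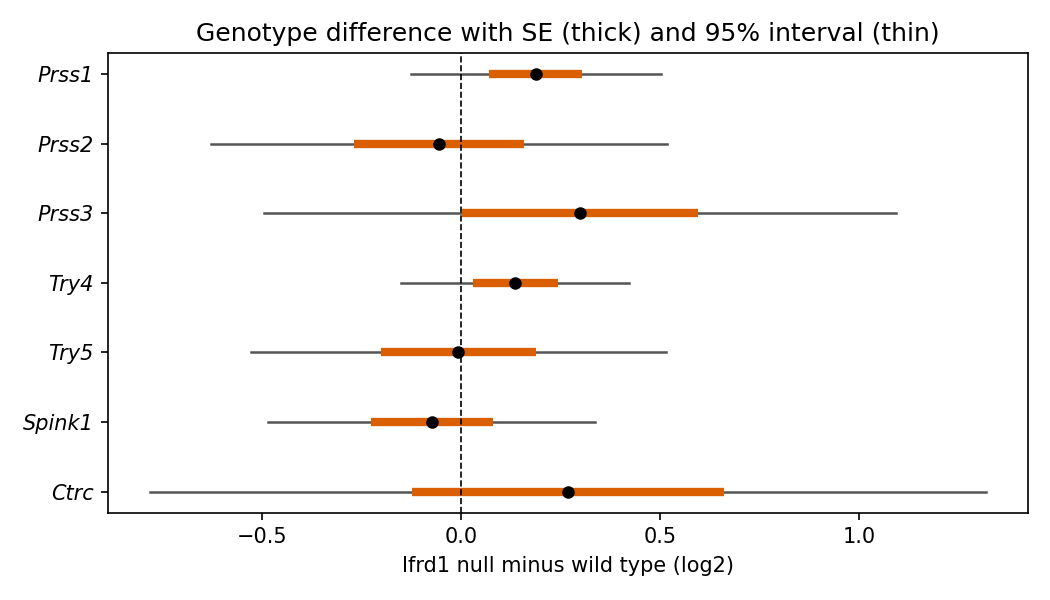
Difference between Ifrd1 null and wild type (log2, x axis) for each of the 7 genes, with limma's moderated standard error as a thick bar and its 95% interval as a thin line (n = 2 arrays per group). All 7 intervals include 0, and that of Ctrc is the widest.

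The trypsinogens belong to 1 gene cluster. In the RefSeq gene table of GRCm38.p6 the cluster lies on chromosome 6 and holds 12 listed trypsinogen genes and pseudogenes, 11 of them protein coding. Of these, 3 precede and 9 follow a run of 33 annotated T cell receptor beta variable segments. RefSeq windows upstream of the gene start were at hand for 4 members and are printed to show how alike the copies are upstream of their starts, as the 250 bases before the start, 5′ to 3′ on the gene's strand. They lie at chr6:41458680-41458929 (plus strand) for Prss1, chr6:41521526-41521775 (plus strand) for Prss2, chr6:41377614-41377863 (minus strand) for Prss3 and chr6:41302022-41302271 (plus strand) for Try4, all in GRCm38.p6. Capitals mark TATAAA, the TATA box, the E-boxes CACCTG and CAGCTG, and TTTCCC, a core of the TC-box, each found on either strand; PTF1, the acinar transcription factor complex, is known to bind an E-box paired with a TC-box.
Prss1: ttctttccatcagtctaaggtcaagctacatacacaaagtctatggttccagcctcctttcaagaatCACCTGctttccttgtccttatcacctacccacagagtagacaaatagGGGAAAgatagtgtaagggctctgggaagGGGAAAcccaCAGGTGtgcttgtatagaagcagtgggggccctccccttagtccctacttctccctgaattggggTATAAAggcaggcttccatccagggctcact
Prss2: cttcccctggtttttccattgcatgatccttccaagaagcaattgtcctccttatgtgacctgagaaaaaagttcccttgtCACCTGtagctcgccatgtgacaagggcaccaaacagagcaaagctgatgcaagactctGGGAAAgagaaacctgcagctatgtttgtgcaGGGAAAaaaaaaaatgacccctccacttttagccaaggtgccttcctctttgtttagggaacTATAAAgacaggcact
Prss3: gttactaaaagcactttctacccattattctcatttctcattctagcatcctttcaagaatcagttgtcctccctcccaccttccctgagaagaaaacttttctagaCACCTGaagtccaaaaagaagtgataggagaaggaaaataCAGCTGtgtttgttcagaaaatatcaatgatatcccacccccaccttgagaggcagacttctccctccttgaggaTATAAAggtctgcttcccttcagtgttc
Try4: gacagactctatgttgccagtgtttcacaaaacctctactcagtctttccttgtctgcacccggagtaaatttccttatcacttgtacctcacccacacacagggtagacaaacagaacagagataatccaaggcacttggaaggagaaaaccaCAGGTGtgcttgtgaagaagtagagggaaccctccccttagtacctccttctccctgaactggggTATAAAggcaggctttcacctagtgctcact

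The TATAAA letters stood in the windows of all 8 trypsinogen genes that had an entry (4 members and 4 paralogs), on the strand of the gene, against 7.59% of 32851 windows of that length in the whole table (12.4% with the reverse TTTATA counted too). In Prss1 and Try4 the last base of TATAAA lay 26 bases before the annotated start, in Prss3 23 bases and in Prss2 11 bases. CACCTG or its reverse CAGGTG was found in 8 of the 8 trypsinogen windows, against 17.2% of all windows. TTTCCC or its reverse GGGAAA was found in 4 of the 8, against 21.9% of all windows, and of the printed windows Prss1 and Prss2 held it while Prss3 and Try4 did not. CAGCTG, which reads the same on both strands, was found in 2 of the 8, one of them Prss3, against 13.0% of all windows. None of these motifs overlapped another in the printed windows. The letters were chosen after the windows had been read, and a match describes the sequence and shows no bound site.

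Among the printed windows, Prss1 and Try4 were the closest pair, with 70.4% identity over a global alignment, and Prss1 and Prss2 shared 54.3%. Prss1 was closer still to the paralog Gm5771 (83.7%) and Prss3 to Gm10334 (84.6%), the gene with which Prss3 shares its bright row. The lowest identity among the trypsinogen windows was 44.9%, for Prss1 and 2210010C04Rik. No windows of other genes were aligned as a baseline, and the windows are set by annotated starts that lie at unequal distances from TATAAA. The trypsinogen windows lie outside the transcripts, which were not compared here, and how far each row reads only the gene it names was not tested.

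The other trypsinogen copies were measured as well. Of the 5 measured paralogs that are no members, 0 passed the adjusted threshold, and the median difference was 0.02 on the log2 scale. The gene 2210010C04Rik was at 11.08 and 12.54 in Ifrd1 null against 11.87 and 11.96 in wild type, so the null arrays lay 1.46 apart and enclosed the wild-type arrays, which lay 0.09 apart. Gm5771 showed the same arrangement, with 6.44 and 7.69 in Ifrd1 null and 7.04 and 7.05 in wild type. Gm5409, annotated as a pseudogene, was at 12.59 and 12.74 in Ifrd1 null and 12.58 and 12.52 in wild type. Its groups did not overlap either (difference 0.12 ± 0.11, SE), but the nearest arrays, Ifrd1 null 1 and wild type 1, were at 12.586 and 12.581. The row that Gm5409 shares with Try10 went the other way, with a mean difference of -0.27. Gm2663, the brightest trypsinogen row, was at 13.35 and 13.55 in Ifrd1 null against 13.41 and 13.37 in wild type. Over the 10 trypsinogen genes with a row of their own, members and paralogs together, Ifrd1 null 2 was above the wild-type mean for 10 of 10 and Ifrd1 null 1 below it for 7 of 10. Over all genes, the median of the level minus the wild-type mean was -0.01 in Ifrd1 null 1 and 0 in Ifrd1 null 2. The level was higher in Ifrd1 null 2 than in Ifrd1 null 1 for 10 of 10, as it was for 11096 of all 22180 genes.

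**Figure D3:**
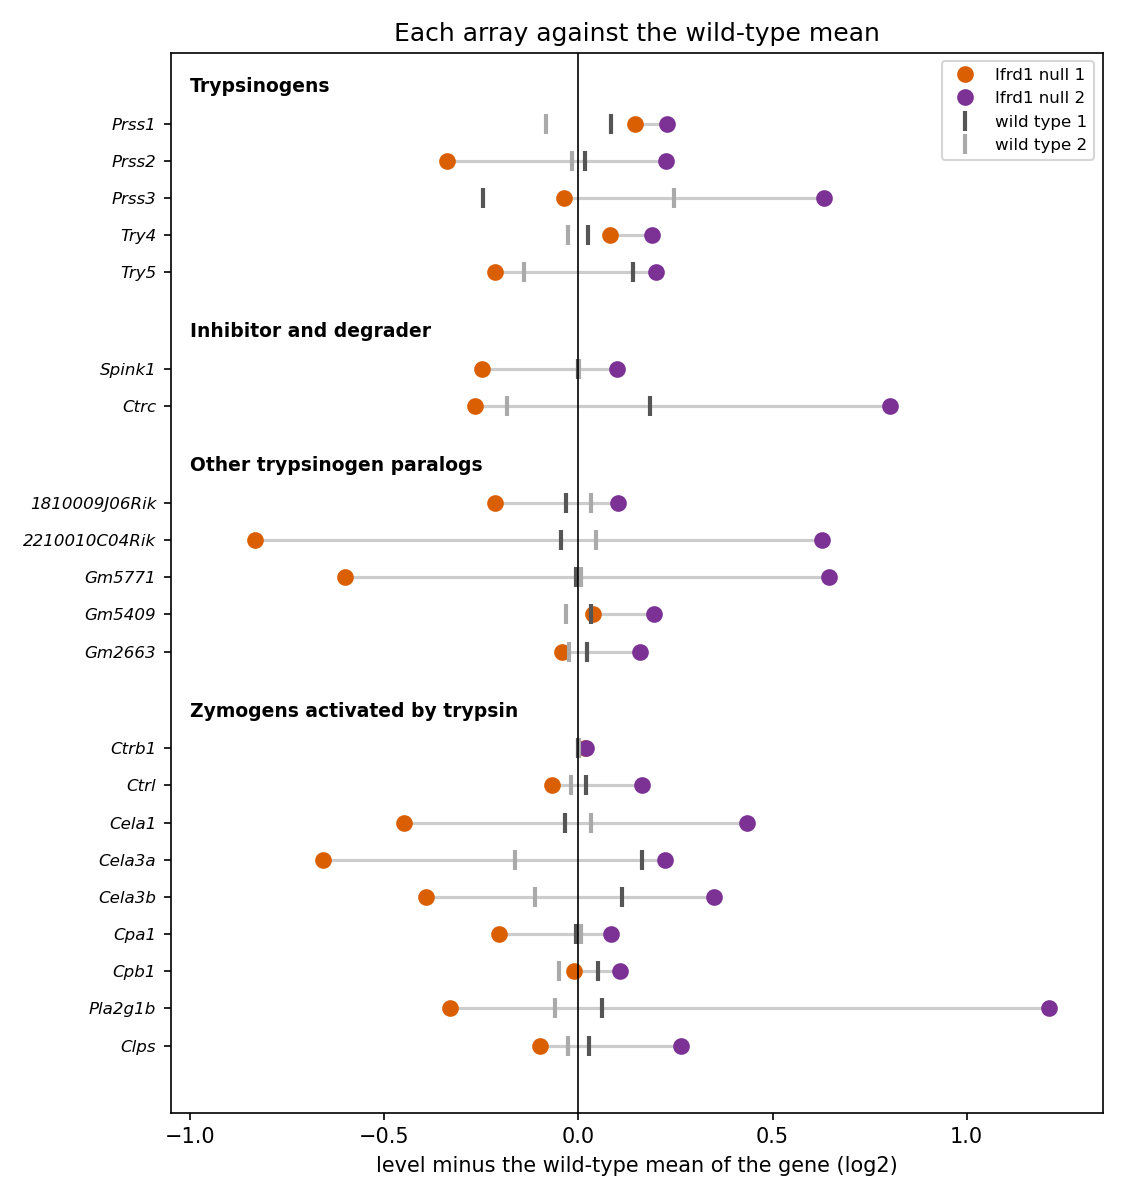
Level of each array minus the wild-type mean of the same gene (log2, x axis) for the trypsinogens, Spink1 and Ctrc, the other trypsinogen paralogs and the zymogens that trypsin activates. Filled circles are Ifrd1 null arrays, joined by a grey line, and ticks are wild-type arrays; Ifrd1 null 2 lies right of Ifrd1 null 1 for every gene drawn, with Ctrb1 at almost the same place in both.

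Spink1, the Kazal-type inhibitor that acinar cells store with trypsinogen, did not pass the test either. It was at 11.49 and 11.84 in the Ifrd1 null arrays, against 11.74 and 11.74 in the wild-type arrays. The null arrays lay on both sides of the wild-type arrays, which were 0.0021 apart. The difference was -0.07 ± 0.15 (log2, SE; limma adjusted p = 0.906), and the 95% interval of the fold ran from 0.715 to 1.26. RefSeq places Spink1 on chromosome 18, away from the trypsinogen cluster. Minus the wild-type mean, the level of Spink1 was -0.25 on array Ifrd1 null 1 and 0.10 on array Ifrd1 null 2. The same quantity was 0.15 and 0.23 for Prss1, 0.08 and 0.19 for Try4, and -0.34 and 0.23 for Prss2. By this quantity, not by level, Spink1 lay below Prss1 and Try4 on both null arrays, but above Prss2 on Ifrd1 null 1. These differences between genes carry no test.

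Ctrc had the widest spread of the members. It was at 7.80 and 8.87 in Ifrd1 null and at 8.25 and 7.88 in wild type, so the lowest and the highest value were both in null arrays. The group means were 8.33 ± 0.75 in Ifrd1 null and 8.07 ± 0.26 in wild type (SD, n = 2 each). The difference of 0.27 ± 0.39 (SE; limma adjusted p = 0.867) was smaller than the spread of the null arrays, and the 95% interval of the fold ran from 0.581 to 2.49. RefSeq annotates Ctrc on chromosome 4 as a transcribed pseudogene in the reference strain C57BL/6J, so the transcript there is not taken to encode an enzyme, and the labels do not state the strain of these mice. A further row names Ctrc together with the elastase gene Cela2a. It was at 13.44 and 13.65 in Ifrd1 null against 13.51 and 13.52 in wild type, and the share of each gene in it cannot be told apart.

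Try4 was the member near the top of the scale, where the highest value of an array was between 13.90 and 13.92. It was 0.79 and 0.68 below the top in Ifrd1 null and 0.83 and 0.88 below it in wild type, and ranked between 24 and 33 among the 41345 rows of each array. Gm2663 was closer still, 0.57 and 0.37 below the top in Ifrd1 null and 0.48 and 0.53 below it in wild type. Spink1, Prss1 and Prss2 lay 2.08 to 3.26 below the top on every array, Ctrc 5.05 to 6.12, Try5 7.90 to 8.31 and Prss3 9.71 to 10.57. The null arrays differed by 0.11 for Try4 and 0.20 for Gm2663, both near the top, but also by only 0.08 for Prss1, well below it. They differed by more for some other genes near the top. The gap was 0.32 for the paralog 1810009J06Rik (1.04 and 0.72 below the top in Ifrd1 null) and 0.89 for Cela1 (1.34 and 0.46 below it). For 2210010C04Rik, which lay 2.83 and 1.37 below the top in Ifrd1 null and 2.03 and 1.94 below it in wild type, the null arrays differed by 1.46. Whether the scale is compressed near the top was not tested.

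The genes that act with trypsin were measured as lists. Of 11 genes for zymogens that trypsin activates, besides Ctrc, 9 were measured and 0 passed, with a median difference of 0.02 on the log2 scale and 5 of 9 higher. Pla2g1b, a secreted phospholipase, was at 10.48 and 12.02 in Ifrd1 null against 10.87 and 10.75 in wild type (difference 0.44 ± 0.53, SE). Cela1, an elastase, was at 12.58 and 13.46 in Ifrd1 null and 12.99 and 13.06 in wild type. Ctrb1, chymotrypsinogen B, is counted among the 9 but was the highest row on every array, so its own difference is not read here. Of the 8 others, 4 were higher in Ifrd1 null, with a median difference of 0.02 on the log2 scale. Ifrd1 null 2 was the higher null array for all 8 of these, as for the trypsinogens.

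Of 4 listed genes that activate, degrade or sense trypsin or its precursor, 3 were measured and 0 passed. Ctsb, encoding cathepsin B, which activates trypsinogen, was at 11.89 and 11.65 in Ifrd1 null against 11.88 and 12.02 in wild type. Its difference was -0.18 ± 0.14 (log2, SE; limma adjusted p = 0.781). Ctsl, encoding cathepsin L, which degrades trypsinogen, was at 10.89 and 11.18 in Ifrd1 null and at 11.13 and 11.10 in wild type. Tmprss15, the enteropeptidase of the gut lining, lay below the array median on all 4 arrays. Of the 9 other trypsin inhibitors measured, 0 passed, and Ambp, the bikunin precursor, was the only one not below the median on every array, with 6.20 and 6.49 in Ifrd1 null against 6.65 and 6.32 in wild type.

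The spread between the null arrays ran through other acinar genes. All 15 measured acinar genes that are not proteases were lower in Ifrd1 null 1 than in Ifrd1 null 2, by a median of 0.63 on the log2 scale, against 0.41 for the trypsinogens. Relative to the wild-type mean, the acinar list had a median of -0.30 in Ifrd1 null 1 and 0.33 in Ifrd1 null 2. Its mean level was 10.41 and 11.02 in Ifrd1 null against 10.70 and 10.66 in wild type. Markers of several other cell types ran the other way between the null arrays: the medians of B and plasma cell markers were 1.23 in Ifrd1 null 1 and -0.62 in Ifrd1 null 2, with 6 of 6 higher in Ifrd1 null 1, and a mean level of 6.58 and 4.80 in Ifrd1 null against 5.44 and 5.28 in wild type. Adipocyte markers had medians of 0.69 and -0.37, with 7 of 7 higher in Ifrd1 null 1, and a mean level of 6.63 and 5.47 in Ifrd1 null against 5.74 and 6.20 in wild type. For macrophage markers the medians were 0.03 and -0.52, with 8 of 8 higher in Ifrd1 null 1, and for stellate and fibroblast markers 0.17 and -0.49, also 8 of 8. T and NK cell markers had medians of 0.62 and 0.17, again with 8 of 8 higher in Ifrd1 null 1. The medians of other lists lay closer between the null arrays. They were -0.28 and -0.44 for duct (2 of 6 higher in Ifrd1 null 2), -0.10 and -0.27 for endothelial (1 of 7), -0.32 and -0.35 for islet (4 of 7) and -0.03 and -0.20 for intestinal markers (6 of 10). Close medians did not always mean close genes. The median size of the gap between the null arrays, gene by gene, was 0.31 for duct and 0.26 for intestinal markers, beside 0.26 for T and NK cell markers. In whole tissue, a different share of acinar cells and a different RNA level per acinar cell cannot be told apart. The part of these lists in the values of the members was not tested.

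**Figure D4:**
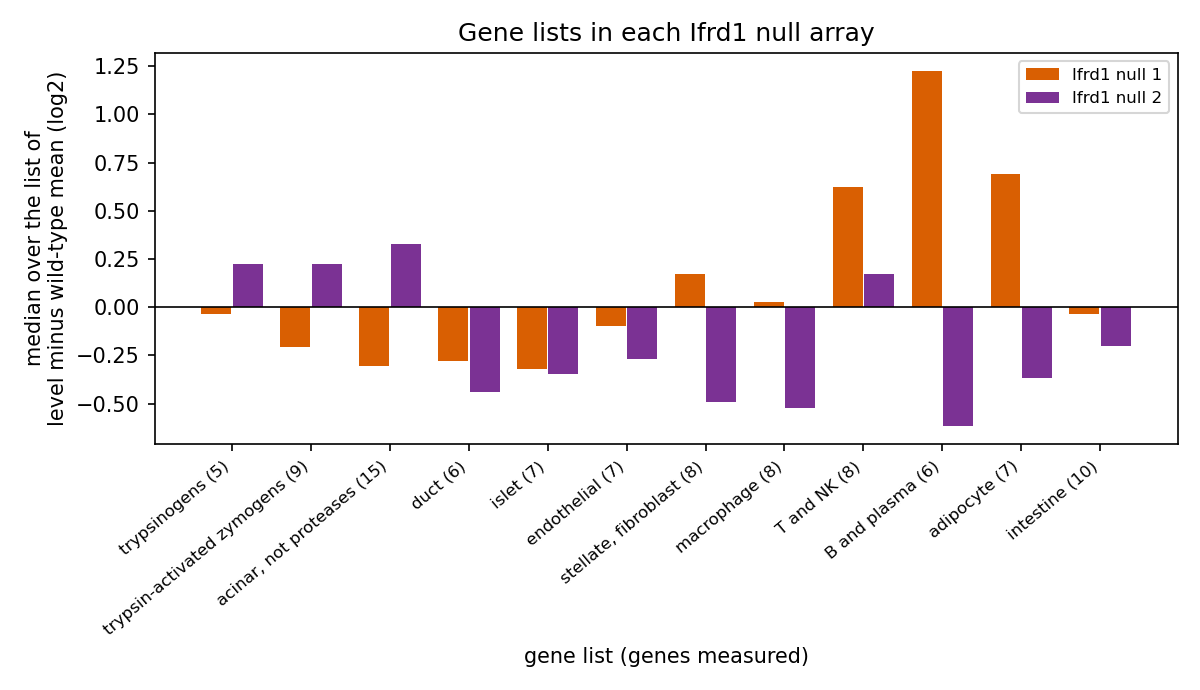
Median over each gene list of the level minus the wild-type mean (log2, y axis), in Ifrd1 null 1 and Ifrd1 null 2, with the number of genes measured in parentheses. Acinar lists are lower in Ifrd1 null 1 than in Ifrd1 null 2, the macrophage, fibroblast, B cell, T cell and adipocyte lists are higher in it, and the islet list is close in both.

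With the null arrays apart in this way, the genotype difference of most members depended on which null array was kept. Without Ifrd1 null 1 the differences of Prss2, Try5 and Spink1 were 0.23, 0.20 and 0.10 on the log2 scale, all above 0. Without Ifrd1 null 2 those of Prss3 and Ctrc were -0.04 and -0.27, and the median of the 7 members was -0.21, against 0.14 over all arrays. For Prss1 and Try4 the sign could not turn in this way, since their groups do not overlap.

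The genes whose pattern over the 4 arrays lay closest to that of the members were found by Euclidean distance between values centred on each gene's mean. Candidates were the genes whose mean level lay above the median gene mean. Closest to the median of the members were Pqbp1, Snhg11 and Mto1, at distances of 0.04 to 0.05 on the log2 scale. Closest to Spink1 were Dmbt1, Slc35e1 and Fance, at 0.01 to 0.02. Dmbt1, which encodes a secreted scavenger receptor of epithelia, was at 11.90 and 12.25 in Ifrd1 null against 12.14 and 12.15 in wild type. Closest to Ctrc were Bhlha15, a transcription factor of secretory acinar cells, Gstm7 and the amylase gene Amy2b, at 0.18 to 0.19. Bhlha15 was at 7.31 and 8.14 in Ifrd1 null against 7.62 and 7.34 in wild type. Within a wider distance of 0.25, many genes lay near the first pair of patterns. These were 1713 of 11084 candidates for the median of the members and 3087 of 11089 for Spink1, against 12 of 11089 for Ctrc.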

How the data were processed

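Per the labels' protocols, biotin-labelled total RNA of whole pancreas was run on Affymetrix arrays. The authors deposited 1 log2-like value per array and transcript cluster, between 0.218 and 13.9. The log base, background correction, probe summary and normalization are not given in the sources used here, so folds rest on reading the values as log2. The array medians were 4.15 and 4.13 in Ifrd1 null and 4.11 and 4.08 in wild type. Of 41345 rows, 23521 had 1 symbol, 1814 several and 16010 none here; the row with the highest mean stood for a gene, which gave 22180 genes, 21994 of them in the RefSeq table used for names. All genes were fitted with limma 3.58.1 (lmFit, eBayes) (R 4.3.3), with no covariate, for the contrast of Ifrd1 null over wild type, two-sided, with Benjamini-Hochberg adjustment over all genes and a threshold of 0.05. The script was tested on simulated data. No filter on dim rows and no detection call was used; the number of arrays limits the precision. Sequences are from RefSeq tables of GRCm38.p6, which matched 4 of the 8 names. The text names all members and their other rows, the trypsin-related lists, Ifrd1, and the 3 genes closest in pattern; other genes were chosen after their values were seen. Members and lists were chosen with earlier results of these data known. Alternatives covered normalization, replicate block, variance model, dim rows, row choice, naming and each array left out.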

Additional observations from a re-analysis of the deposited data

How the results depend on the processing

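No member passed the adjusted threshold in any of 83 member-by-setting fits (0 passed; lowest limma adjusted p = 0.474). The sign of Prss2 turned with cyclic loess (0.0242) and that of Try5 with quantile normalization (0.0486) and cyclic loess (0.0542); the cause was not tested. With single arrays left out, Prss2 ran from -0.338 to 0.226, Try5 from -0.214 to 0.199 and Spink1 from -0.249 to 0.0995, above 0 without Ifrd1 null 1 (Try5 also without wild type 1, at 0.132), while Prss3 ran from -0.0361 to 0.632 and Ctrc from -0.266 to 0.801, below 0 without Ifrd1 null 2 (all log2). With single arrays left out, the members' median ran from -0.214 to 0.226 and that of the trypsinogens from -0.0361 to 0.226; the low ends, without Ifrd1 null 2, are the only settings where these medians fell below 0. The count of genes past the threshold was 1 over all arrays, 5 with median centring, 4 with cyclic loess, 5 with a trend and robust eBayes, 0 among genes above the median level, where Prss3 was not tested, and 0 with any 1 array left out. With the replicate number as a block it was 4, and no member passed. Same-numbered arrays did not deviate together (correlation -0.0352 over genes), but this value cannot show whether litters or days were shared. The labels state no pairs, so the numbers are not taken as pairs. Naming genes as the platform prints them changed no name. Single rows at low signal, Prss3 above all, limit what can be read.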

Other observations

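The trypsinogen cluster encloses T cell receptor beta segments and is followed by Ephb6 and Trpv6, whose values were looked up after those of the members were seen. Trbv13-2, the only such segment with a row of its own, lay below the median on all 4 arrays, with 3.66 and 3.65 in Ifrd1 null against 3.46 and 3.13 in wild type. Ephb6, a receptor of the ephrin family, was at 5.19 and 4.99 in Ifrd1 null and at 5.12 and 5.27 in wild type. Trpv6, a calcium channel of epithelia, was at 7.12 and 7.59 in Ifrd1 null against 7.60 and 7.64 in wild type. All 3 missed the adjusted threshold in limma (adjusted p from 0.722 to 0.850).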
